A study of Mus musculus with 18 samples.

Results

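Reg3g and 9 other genes for secreted proteins of mucosal antimicrobial defence (Lcn2, Ltf, Slpi, Lyz1, Lyz2, Pigr, Bpifa1, Bpifb1 and Wfdc2) were followed through 18 cultures of mouse lung epithelium, as 10 of the 46603 genes in each expression table. The set was chosen by the TPM and expected counts of Reg3g, whose reads nearly vanish in the tumoroids, so the difference of Reg3g between organoids and tumoroids is described here without a test. The other 9 genes were taken by name as fellow secreted defence proteins, with earlier results of these data known. As a set of airway genes the name holds only in part, since Lyz1, Lyz2 and Slpi were higher in alveolar than in tracheal cultures.

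The cultures came from mice with a human EGFR gene carrying T790M and L858R, placed in the Col1a1 locus behind a loxP-flanked stop and driven by the ubiquitous CAG promoter. Organoids were grown from tracheal cells sorted as NGFR-negative (club) or NGFR-positive (basal), and from distal lung cells sorted as Sca1-negative (alveolar type 2, AT2) or Sca1-positive (bronchioalveolar stem cells, BASCs). From every sort, paired cultures were made with Ad-GFP, an adenovirus without Cre, and with Ad-Cre, which cuts out the stop. BASC organoids were subcloned by hand according to morphology. The mixed BASC cultures held alveolar and bronchiolar organoids and were sequenced after Ad-GFP and after Ad-Cre, whereas the alveolar and the bronchiolar BASC subclones were sequenced after Ad-Cre alone, which gave 10 organoid libraries, each the single library of its condition. The 8 tumoroid libraries were all from Cre-treated cells. Ad-Cre organoids were placed in the trachea of Nude (Foxn1 Nu/Nu) mice, which lack a thymus but keep innate immune cells, and the tumours were dissociated and regrown in 3D before RNA was taken, giving AT2 tumoroids (n = 3), mixed BASC tumoroids (n = 3) and a bronchiolar BASC tumoroid (n = 1). The last tumoroid came from an autochthonous tumour, started by virus in the lung itself. Every culture shared Matrigel and mesenchymal endothelial support cells, whose markers differed in level between libraries. The ages of the donor animals were not used here.

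Surface epithelium of the airway keeps inhaled microbes in check with a secreted film of lectins, iron-binding proteins, protease inhibitors, lysozyme and immunoglobulin A. Club, goblet and gland cells make most of these proteins in the conducting airway, and AT2 cells make lysozyme together with the surfactant proteins. Cytokines of the IL-17 and IL-22 families, acting through NF-kB, C/EBP factors and STAT3, are the textbook inducers of Reg3g and Lcn2 in barrier epithelia.

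Reg3g lies on chromosome 6 of GRCm38 (78466269 to 78468872, minus strand) and encodes a C-type lectin that binds and kills Gram-positive bacteria. Ltf lies on chromosome 9 (111019271 to 111042767, plus strand) and encodes lactoferrin, which withholds iron. The 250 bases before their start sites (RefSeq, GRCm38.p6) are shown because these were the 2 most abundant of the 10 transcripts in the tracheal cultures and yet parted in the bronchiolar tumoroid. The gene coordinates are those of GENCODE vM21, so the Ltf window, placed by the RefSeq start site, runs into the gene as given. Capitals mark matches to 4 motifs, TATAAA (coding strand), GGGANNNNCC (an NF-kB-like form), TTCNNNGAA (a STAT form) and TTGCNNAA (a C/EBP form), the last 3 on either strand.
Reg3g, chr6:78468875-78469124, minus strand: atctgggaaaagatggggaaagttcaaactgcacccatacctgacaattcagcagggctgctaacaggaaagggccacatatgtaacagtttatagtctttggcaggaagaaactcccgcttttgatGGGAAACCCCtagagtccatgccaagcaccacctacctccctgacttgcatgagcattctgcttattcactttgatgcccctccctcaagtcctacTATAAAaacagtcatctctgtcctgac
Ltf, chr9:111019042-111019291, plus strand: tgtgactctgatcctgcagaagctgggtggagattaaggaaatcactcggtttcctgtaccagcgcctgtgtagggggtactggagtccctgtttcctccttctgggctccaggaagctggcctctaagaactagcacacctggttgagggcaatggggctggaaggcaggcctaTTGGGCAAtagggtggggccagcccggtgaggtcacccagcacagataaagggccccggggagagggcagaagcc
The Reg3g window holds TATAAA with its first base 27 bases before the start and an NF-kB-like match 123 bases before it. The Ltf window holds a single match, to the C/EBP form, 75 bases before the start. Among the 32851 RefSeq windows of this length, 7.59% hold TATAAA, 17.6% the NF-kB-like form, 7.02% the STAT form and 9.56% the C/EBP form. A match in these letters is a description of the sequence, not a bound site.

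The lysozyme genes Lyz1 and Lyz2 are neighbours on the minus strand of chromosome 10 (117287797 to 117292868 and 117277331 to 117282321). Both encode lysozyme, which cuts the bacterial cell wall. Their coding sequences differ at 22 of 444 bases, and the 120 bases before their RefSeq start sites at 9 positions. The Lyz2 window overlaps the gene as given, because these gene coordinates are those of GENCODE vM21. These stretches are shown because reads of one gene can be assigned to the other, and capitals mark the positions where they differ.
Lyz1, chr10:117292869-117292988, minus strand: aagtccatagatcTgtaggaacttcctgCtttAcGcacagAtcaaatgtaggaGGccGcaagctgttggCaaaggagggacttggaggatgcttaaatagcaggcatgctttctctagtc
Lyz2, chr10:117282273-117282392, minus strand: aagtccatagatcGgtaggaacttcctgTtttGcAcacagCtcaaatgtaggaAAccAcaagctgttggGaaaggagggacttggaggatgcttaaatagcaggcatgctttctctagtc

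Levels are given in TPM, RSEM's share of all transcripts, which is scaled for transcript length and so can be compared between genes. Tests were run on expected counts, RSEM's estimate of the reads that belong to a gene. An organoid library summed to between 27772660 and 97191624 expected counts, a tumoroid library to between 15327265 and 23355938. All organoid libraries were TruSeq libraries read on a HiSeq, and all tumoroid libraries were made and read on the BGI DNBSEQ platform, so platform and transplantation cannot be told apart. The labels do not say whether tumoroids with a shared number in their titles came from the same mouse, and the AT2 tumoroids carry an NGFR-negative sorting label beside their AT2 origin. With 1 library per organoid condition, the cultures compared as replicates are different populations or the Ad-GFP and Ad-Cre aliquots of 1 population, so p values measure the spread between these libraries. In these bulk samples, fewer cells of a type and less RNA per cell cannot be told apart.

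By these markers the cultures matched most but not all of their labels. The summed TPM of 8 AT2 markers was 67.7 to 182 in the tracheal organoids, 802 to 3565 in the mixed or bronchiolar BASC organoids and 77570 to 83540 in the alveolar organoids. The mixed BASC organoids, at 802 (Ad-GFP) and 3565 (Ad-Cre), lay near the bronchiolar ones, at 3023. So the alveolar part that the mixed label implies was small by this measure. The 5 basal markers summed to 2776 to 3689 in the trachea and 3.41 to 128 in the alveolar organoids. Within the trachea this sum was 3372 to 3689 TPM in the NGFR-negative (club) and 2776 to 3105 TPM in the NGFR-positive (basal) cultures. It was thus not higher in the cultures sorted as basal. The 6 club markers summed to 4650 to 9087 TPM in the tracheal organoids, with 8420 to 9087 TPM in the NGFR-negative ones. That sum was 1199 to 2363 TPM in the alveolar and 11770 to 13650 TPM in the mixed or bronchiolar BASC organoids. Of these markers Scgb1a1, a club cell secretoglobin, reached only 7.03 to 18.4 TPM in the tracheal organoids, against 6392 in the bronchiolar BASC organoids. Of 9 neutrophil markers, 8 stayed at or under 1 TPM in every organoid, among them Mpo and Elane. Of 10 macrophage markers, 8 did so, and Cd68, also present in epithelium, made up most of the summed 23.9 to 103 TPM. The 8 support cell markers summed to 712 to 2955 TPM over all organoids and to 161 to 4143 TPM over all tumoroids.

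**Figure D1:**
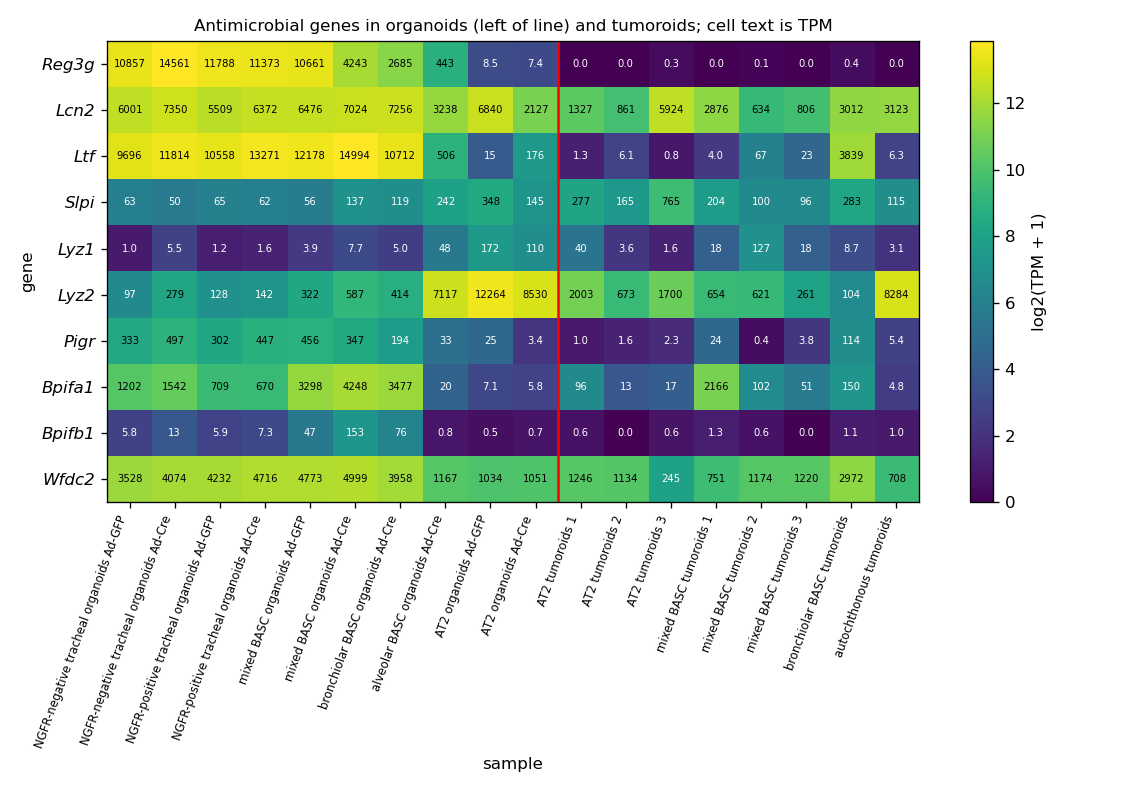
Level of each of the 10 genes (rows) in each of the 18 libraries (columns), coloured by log2(TPM + 1) and printed as TPM, with organoids left of the red line and tumoroids right of it. Reg3g reads 2685 to 14561 TPM in the 7 tracheal, mixed and bronchiolar organoids and at most 0.38 TPM in any tumoroid, while Lcn2 stays above 600 TPM everywhere.

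Across the organoids, the set divided by lineage. Reg3g, Ltf, Pigr, Bpifa1, Bpifb1 and Wfdc2 were higher in tracheal than in alveolar cultures, Lyz1, Lyz2 and Slpi were higher in alveolar cultures, and Lcn2 passed no test. The alveolar cultures were the AT2 organoids after Ad-GFP and after Ad-Cre and the alveolar BASC organoids (n = 3), set against the 4 tracheal cultures. By edgeR's quasi-likelihood test with Benjamini-Hochberg adjustment over 19349 genes, 9 of the 10 genes were called, 3 higher and 6 lower in the alveolar cultures. That share has to be read against a background of 58.2% of all genes called, 28.8% higher and 29.4% lower. The median log2 fold change of the 10 genes was -2.66, beside -0.06 over all genes tested.

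Reg3g stood at 10857 and 14561 TPM in the NGFR-negative tracheal organoids (Ad-GFP, then Ad-Cre) and at 11788 and 11373 TPM in the NGFR-positive ones. It was at 8.5 and 7.39 TPM in the AT2 organoids and at 443 TPM in the alveolar BASC organoids. The groups did not overlap, and within the alveolar group the BASC-derived culture stood apart from both AT2 cultures. Reg3g was lower in the alveolar than in the tracheal cultures by a log2 fold change of -6.11 (SE 1.65, edgeR adjusted p = 0.0124), and by -10.44 (edgeR adjusted p = 7.11e-05) without the alveolar BASC culture. That culture also held basal and club transcripts, with Krt5 at 71.0 TPM and Scgb1a1 at 762 TPM, against 1.25 and 5.03 TPM of Krt5 in the AT2 organoids, and the part of such cells in its Reg3g level was not tested.

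The iron-withholding genes parted from each other. Ltf read 9696 to 13271 TPM in the 4 tracheal organoids, 15.2 and 176 TPM in the AT2 organoids (Ad-GFP, then Ad-Cre) and 506 TPM in the alveolar BASC organoids, a log2 fold change of -5.39 (SE 1.05, edgeR adjusted p = 0.00253), or -6.60 (edgeR adjusted p = 0.00207) without the alveolar BASC culture. Lcn2 (chromosome 2, 32384633 to 32388252, minus strand), which encodes lipocalin 2, a protein that binds bacterial iron-carrying siderophores, was abundant on both sides. It read 5509 to 7350 TPM in the trachea and 6840, 2127 and 3238 TPM in the AT2 Ad-GFP, AT2 Ad-Cre and alveolar BASC organoids. The ranges overlapped through the AT2 Ad-GFP culture alone, and the log2 fold change was -0.49 (SE 0.358, edgeR adjusted p = 0.269). Without that culture it was -1.04 (edgeR adjusted p = 0.0115), so 1 library decided this call.

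Among the carrier and lipid-binding proteins, Pigr (chromosome 1, 130826684 to 130852249, plus strand), the receptor that ferries immunoglobulin A across epithelium, read 302 to 497 TPM in the trachea and 3.4 to 33.4 TPM in the alveolar cultures (log2 fold change -4.10, SE 0.77, edgeR adjusted p = 0.00213). Bpifa1 (chromosome 2, 154142880 to 154149219, plus strand), a surface-active protein of the upper airway film, read 670 to 1542 TPM in the trachea and 5.84 to 20.2 TPM in the alveolar cultures (log2 fold change -6.30, SE 0.558, and -7.14 without the alveolar BASC culture). Its neighbour and relative Bpifb1 (154190818 to 154220369, plus strand) was far scarcer, at 5.77 to 13.1 TPM against 0.48 to 0.82 TPM (log2 fold change -3.50, SE 0.516). None of these ranges overlapped.

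The protease-inhibitor genes moved in opposite directions. Wfdc2 (chromosome 2, 164562413 to 164568510, plus strand), a whey acidic protein of airway secretions, read 3528 to 4716 TPM in the trachea and 1034 to 1167 TPM in the alveolar cultures (log2 fold change -1.82, SE 0.162, edgeR adjusted p = 4e-05). Slpi (chromosome 2, 164354070 to 164389095, minus strand), which encodes an inhibitor of neutrophil elastase, read 50.5 to 65.3 TPM in the trachea and 145 to 348 TPM in the alveolar cultures (log2 fold change 2.17, SE 0.363, edgeR adjusted p = 0.00114). Slpi was thus the only 1 of the 10 with a higher level in alveolar cultures that is no lysozyme.

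Lyz2 showed the opposite pattern to Reg3g across these organoids. It read 96.9 to 279 TPM in the trachea and 12264, 8530 and 7117 TPM in the AT2 Ad-GFP, AT2 Ad-Cre and alveolar BASC organoids, with a log2 fold change of 5.99 (SE 0.449, edgeR adjusted p = 1.79e-05). Lyz1 read 1.01 to 5.54 TPM against 48.3 to 172 TPM (log2 fold change 5.79, SE 0.633, edgeR adjusted p = 0.000115, and 6.67 without the NGFR-negative Ad-Cre culture). Because of the near identity shown above, Lyz1 at these levels is uncertain, and with the counts of both genes summed the log2 fold change was 5.99 (edgeR adjusted p = 1.84e-05).

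BASC-derived cultures gave the second view of lineage. The mixed BASC organoids after Ad-GFP and Ad-Cre and the bronchiolar BASC organoids (n = 3) were compared with the same 3 alveolar cultures, so this comparison shares those cultures with the previous one. By the same edgeR test 6 of the 10 genes were higher and 3 lower in the mixed or bronchiolar cultures, against a background of 49.7% of genes called (25.7% higher and 24% lower). Over the 10 genes the log2 fold change had a median of 2.91, beside 0.05 over all genes tested.

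Reg3g read 10661 TPM in the mixed BASC Ad-GFP organoids, 4243 TPM in the mixed BASC Ad-Cre organoids and 2685 TPM in the bronchiolar BASC organoids. All 3 lay above the alveolar cultures, and the Ad-GFP culture lay near the tracheal level. The log2 fold change was 5.07 (SE 1.6, edgeR adjusted p = 0.0283). The call was lost without the mixed BASC Ad-GFP culture (4.30, edgeR adjusted p = 0.0522) or the AT2 Ad-GFP culture (4.48, edgeR adjusted p = 0.0527), stood at the threshold without the AT2 Ad-Cre culture (4.48, edgeR adjusted p = 0.05), and the value was 9.41 (edgeR adjusted p = 0.000168) without the alveolar BASC culture.

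Bpifa1 and Bpifb1 reached their highest levels of the whole series in these cultures. Bpifa1 read 3298, 4248 and 3477 TPM in the mixed Ad-GFP, mixed Ad-Cre and bronchiolar BASC organoids, each above every tracheal culture, and was higher than in the alveolar cultures by a log2 fold change of 8.21 (SE 0.614, edgeR adjusted p = 3.94e-05), or 9.06 without the alveolar BASC culture. Bpifb1 read 47.4, 153 and 76.2 TPM in the same order (log2 fold change 7.02, SE 0.602, edgeR adjusted p = 6.6e-05), and the change was 6.41 without the mixed BASC Ad-Cre culture. Their difference from the tracheal cultures was not tested.

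The other genes took the direction of their tracheal pattern. Ltf read 12178, 14994 and 10712 TPM in the mixed Ad-GFP, mixed Ad-Cre and bronchiolar BASC organoids (log2 fold change 5.56, SE 1.07), Pigr 456, 347 and 194 TPM (3.86, SE 0.778) and Wfdc2 4773, 4999 and 3958 TPM (1.96, SE 0.169). Without the alveolar BASC culture the change was 6.78 for Ltf and 4.44 for Pigr. Lyz2 was lower, at 322, 587 and 414 TPM (-4.54, SE 0.475), and so was Lyz1, at 3.93, 7.68 and 5.04 TPM (-4.44, SE 0.664). Slpi read 56.1, 137 and 119 TPM (-1.37, SE 0.39, edgeR adjusted p = 0.0189), a call lost without the AT2 Ad-GFP culture (-1.02, edgeR adjusted p = 0.0685). Lcn2 read 6476, 7024 and 7256 TPM with a log2 fold change of 0.62 (SE 0.38, edgeR adjusted p = 0.208), which became 1.19 (edgeR adjusted p = 0.0101) without that same AT2 culture.

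**Figure D2:**
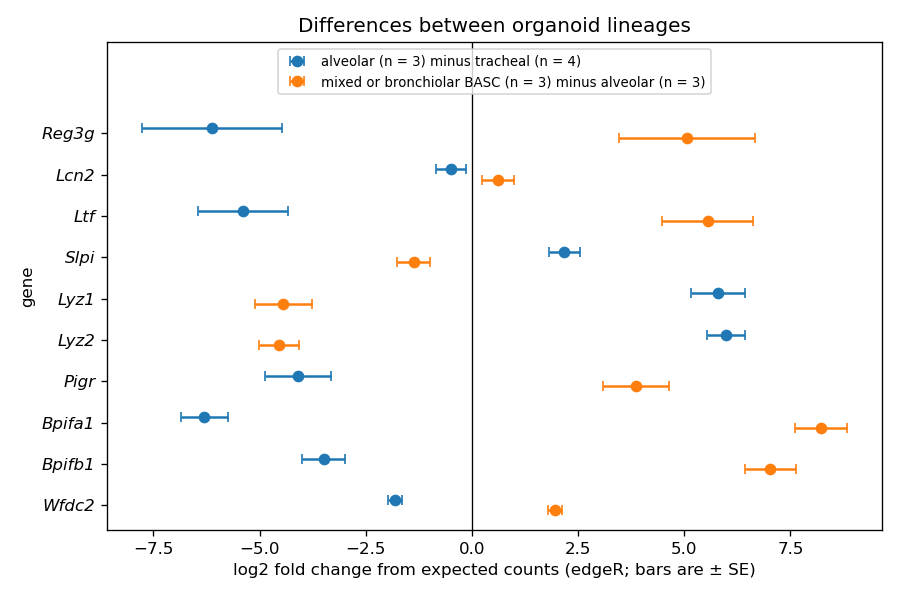
Log2 fold change of each gene between organoid lineages, from edgeR on expected counts, with bars of ± 1 SE. Blue points are alveolar (n = 3) minus tracheal (n = 4) and orange points are mixed or bronchiolar BASC (n = 3) minus the same 3 alveolar cultures. Reg3g, Ltf, Pigr, Bpifa1, Bpifb1 and Wfdc2 have the blue point below and the orange point above 0, and Slpi, Lyz1 and Lyz2 the reverse.

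A wider list of 62 epithelial defence genes held 35 with enough reads to test. In the alveolar cultures 9 were higher and 19 lower than in the tracheal cultures, beside 28.8% and 29.4% of all genes, with the largest changes in Sftpa1 (log2 fold change 10.22), the collectin surfactant protein A, Reg1 (-7.89), a lectin related to Reg3g, and Duoxa1 (-7.02), which matures the peroxide-making dual oxidases. In the mixed or bronchiolar BASC cultures 20 were higher and 8 lower than in the alveolar ones, beside 25.7% and 24% of all genes, led by Reg1 (9.82), the trefoil factor Tff2 (8.70) and Duoxa2 (7.55). Reg1 read 3.6 to 31.9 TPM in the tracheal, mixed and bronchiolar organoids, far below Reg3g. The nearest relatives of Reg3g on chromosome 6 (Reg3a, Reg3b and Reg3d) stood at or near 0 TPM in all 18 libraries, with Reg3b at 0.09 TPM in the NGFR-negative Ad-Cre culture.

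Of 40 receptors and regulators upstream of these genes, 38 were tested. In the alveolar cultures 15 were higher and 13 lower than in the trachea, beside 58.2% of all genes called in either direction. The cytokine gene Tnf read 12.8 to 16.7 TPM in the trachea and 0.19 to 0.75 TPM in the alveolar cultures (log2 fold change -4.88). Il22ra1, the epithelial receptor chain for IL-22, was scarce everywhere, at 1.36 to 2.75 TPM in the trachea and at most 0.13 TPM in the alveolar cultures (-4.29). The alarmin Il33 was higher in the alveolar cultures (3.39). Against these, the mixed or bronchiolar BASC cultures had 12 of the 38 higher and 14 lower, beside 49.7% of all genes called, with Tnf (5.65) and Il22ra1 (3.66) higher and Cebpa (-2.87), a C/EBP factor of AT2 cells, lower.

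Within the trachea, the cultures sorted as NGFR-negative and NGFR-positive were compared (2 against 2). No gene of the set was called, nor was any of the 19349 genes by edgeR (0%, with 448 at an unadjusted p under 0.05), while DESeq2 called 12 genes and limma 3. The log2 fold change of Reg3g was 0.11 (SE 1.64, edgeR adjusted p = 1). Bpifa1 read 1202 and 1542 TPM in the NGFR-negative and 709 and 670 TPM in the NGFR-positive cultures, which did not overlap, with a log2 fold change of 0.97 (SE 0.552, edgeR adjusted p = 1). Lyz1 had the highest fitted change of the set, 1.26 (SE 0.797), and rested on 1 culture at 5.54 TPM. Neither the 35 tested defence genes nor the 38 upstream genes held a call.

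Activation of the EGFR transgene was examined by comparing the Ad-Cre and Ad-GFP aliquots of 4 populations, with the population as a block. By edgeR 0 of the 10 genes and 0 of 17749 genes were called (0%, with 350 at an unadjusted p under 0.05), while DESeq2 called 5 genes and limma 0. Reg3g read 10857 TPM with Ad-GFP and 14561 TPM with Ad-Cre in the NGFR-negative tracheal organoids, 11788 and 11373 TPM in the NGFR-positive ones, 8.5 and 7.39 TPM in the AT2 organoids and 10661 and 4243 TPM in the mixed BASC organoids. It was lower in 3 of 4 populations, with a log2 fold change of -0.28 (SE 0.314, edgeR adjusted p = 0.994).

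Bpifb1 had the smallest unadjusted p of the set. Its levels with Ad-GFP and Ad-Cre were 5.77 and 13.1 TPM, 5.92 and 7.33 TPM, 0.48 and 0.7 TPM, and 47.4 and 153 TPM in the same order of populations. It was higher with Ad-Cre in 4 of 4 populations, with a log2 fold change of 0.98 (SE 0.272), and failed the correction (edgeR adjusted p = 0.994). Ltf and Wfdc2 were also higher with Ad-Cre in 4 of 4 populations, Wfdc2 by no more than 1.15 times. The Ltf level with Ad-Cre was 1.22 to 1.26 times that with Ad-GFP in the 3 populations where it was abundant, against 15.2 and 176 TPM in the AT2 pair, and its log2 fold change was 1.00 (SE 0.67, edgeR adjusted p = 0.994). In the same AT2 pair Scgb1a1 read 50.9 TPM with Ad-GFP and 1221 TPM with Ad-Cre, and its part in the Ltf values was not tested.

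**Figure D3:**
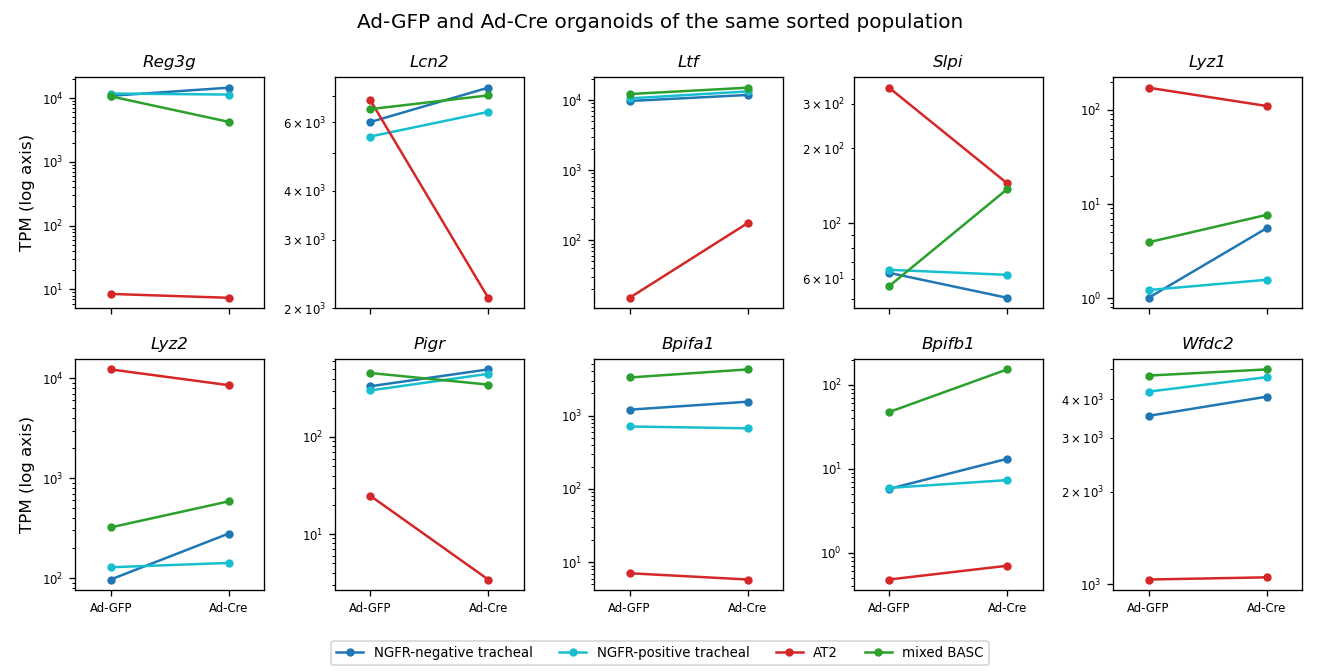
TPM (log axis, a separate scale in each panel) of the 10 genes in the Ad-GFP and Ad-Cre aliquots of 4 sorted populations, each line joining the 2 libraries of a population. Bpifb1, Ltf and Wfdc2 lines all slope upward, while the Reg3g lines of the trachea and AT2 cells are nearly level and that of the mixed BASCs slopes down between 10661 and 4243 TPM.

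Reg3g was chosen for its level in the tumoroids, which is given here as a description. It was listed at 0 TPM in the autochthonous tumoroid, at 0, 0 and 0.31 TPM in the AT2 tumoroids, at 0, 0.1 and 0 TPM in the mixed BASC tumoroids and at 0.38 TPM in the bronchiolar BASC tumoroid. Together these were 7 reads among 173461525 in 8 libraries, 5 of which had none. A count of 0 in the autochthonous library allows up to 3 reads, or 0.128 CPM (counts per library total, scaled like TPM but not for length). The lowest organoid level was 7.39 TPM, in AT2 cells after Ad-Cre, so every organoid lay above every tumoroid.

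By origin, the AT2 organoids held 566 Reg3g reads (3.25 CPM) and the 3 AT2 tumoroids 2 reads, a ratio of 96.6 (95% exact Poisson interval of the tumoroid count 26.7 to 798). The mixed BASC organoids held 3150 CPM of Reg3g and their tumoroids 1 read in 67481734, a ratio of 213000 (interval 38200 to 8400000). The AT2 and mixed BASC organoid values pool the Ad-GFP and Ad-Cre libraries, although the tumoroids came from Ad-Cre organoids alone. In the mixed BASC organoids Reg3g read 10661 TPM with Ad-GFP and 4243 TPM with Ad-Cre, so the pooled ratio is larger than for Ad-Cre alone. The bronchiolar BASC organoids, sequenced after Ad-Cre alone, held 1070 CPM of Reg3g and the bronchiolar tumoroid 4 reads, a ratio of 6240 (interval 2440 to 22900). The intervals cover counting error only. The size of the ratio followed the level in the organoids, since the tumoroid counts were near 0 in all 3 origins.

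For the other 9 genes, the 7 tumoroids from transplants were compared with the 4 distal Ad-Cre organoids. Bpifb1 was the only 1 called by edgeR, lower in the tumoroids, among 16139 genes of which 19.6% were called (8.77% lower and 10.8% higher). It read 0.7 TPM in the AT2 organoids, 153 TPM in the mixed, 0.82 TPM in the alveolar and 76.2 TPM in the bronchiolar BASC organoids, 0.61, 0 and 0.64 TPM in the AT2 tumoroids, 1.28, 0.61 and 0.04 TPM in the mixed BASC tumoroids and 1.08 TPM in the bronchiolar tumoroid. The groups overlapped, because the AT2 and alveolar BASC organoids were already under 1 TPM. The log2 fold change was -6.47 (SE 1.39, edgeR adjusted p = 0.00925), and -3.16 (limma adjusted p = 0.0762) on log2(TPM + 1), where the call was lost. It was -5.27 (edgeR adjusted p = 0.0318) without the mixed BASC Ad-Cre organoids.

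The remaining 8 genes had adjusted p values from 0.113 (Lyz2, log2 fold change -2.21, SE 0.916) to 0.821 (Lyz1, -0.43, SE 1.11) in this edgeR fit. Slpi alone was above 0 (0.89, SE 0.531). The bronchiolar tumoroid set the result for Ltf, at -3.35 (SE 2.14, edgeR adjusted p = 0.3) with it and -8.46 (edgeR adjusted p = 0.0093) without it, and for Pigr, at -2.63 (SE 1.49, edgeR adjusted p = 0.24) with it and -4.73 (edgeR adjusted p = 0.0265) without it. Without the bronchiolar organoids as well, Ltf was at -8.14 (edgeR adjusted p = 0.0233). Lyz2 passed the threshold with DESeq2 (-2.17, DESeq2 adjusted p = 0.0461).

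Tumoroids were then compared with organoids of the same origin. Among AT2 cultures (3 tumoroids against the Ad-GFP and Ad-Cre organoids) 1 of the 9 genes was called, lower in the tumoroids, beside 6.46% of 17592 genes (2.44% lower and 4.02% higher). Among mixed BASC cultures (3 against 2) 4 of the 9 were called, all lower, beside 17.9% of genes (9.6% lower and 8.27% higher). For the difference between the 2 origins, 0 of the 9 genes and 0.227% of all genes were called (0.125% with the higher change in AT2 cells, 0.102% with the lower). An unadjusted p under 0.05 was found for 5 of the 9 genes and for 3055 of the 17592 genes. The 4 calls in one origin are therefore not shown to differ from the AT2 cultures.

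Lyz2 was the gene called in the AT2 cultures. It read 12264 and 8530 TPM in the AT2 organoids (Ad-GFP, then Ad-Cre) and 2003, 673 and 1700 TPM in the AT2 tumoroids, without overlap (log2 fold change -2.69, SE 0.554, edgeR adjusted p = 0.0294). The call was lost without the AT2 Ad-GFP organoids (edgeR adjusted p = 0.196), the AT2 Ad-Cre organoids (0.166), AT2 tumoroid 2 (0.0608) or, through the shared estimate of spread, the mixed BASC Ad-Cre organoids (0.0512). The autochthonous tumoroid, at 8284 TPM of Lyz2, lay near the AT2 organoids and above all 7 transplant tumoroids. In the mixed BASC cultures Lyz2 read 322 and 587 TPM before and 654, 621 and 261 TPM after (0.21, SE 0.553, edgeR adjusted p = 0.813).

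The 8 AT2 markers summed to 31110 to 144900 TPM in the AT2 tumoroids and to 77570 and 83540 TPM in the AT2 organoids, a sum made up mostly of Sftpc. Of the 8, 1 was called lower and 0 higher, with a median log2 fold change of -0.29. The marker called was Napsa, an aspartic protease of AT2 cells, at a mean of 2169 TPM before and 118 TPM after (-4.06, edgeR adjusted p = 0.0338), and its part in the Lyz2 values was not tested. Lyz1 in the AT2 cultures read 172 and 110 TPM before and 39.6, 3.61 and 1.58 TPM after (-2.99, SE 1.36, edgeR adjusted p = 0.224). With the counts of both lysozymes summed, the log2 fold change in the AT2 cultures was -2.70 (edgeR adjusted p = 0.0324). Airway markers fell in the AT2 cultures too. The 6 club markers summed to 1199 and 2363 TPM before and 113 to 537 TPM after. Of these, 2 were called lower and 0 higher (median log2 fold change -4.33), beside 2.44% of all genes lower. Of the 5 basal markers, scarce on both sides, 1 was called lower, and 0 of the goblet and ciliated markers were called. The part of this in the Ltf values of the AT2 cultures was not tested.

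In the mixed BASC cultures Ltf read 12178 and 14994 TPM before transplantation (Ad-GFP, then Ad-Cre) and 3.95, 66.7 and 23.2 TPM after it. The groups were far apart, with a log2 fold change of -8.59 (SE 1.83, edgeR adjusted p = 0.0174), and of -10.11 (edgeR adjusted p = 0.0329) without mixed BASC tumoroid 2. The call was lost without the Ad-GFP organoids (edgeR adjusted p = 0.0754) or mixed BASC tumoroid 3 (0.0595). In the AT2 cultures Ltf read 15.2 and 176 TPM before and 1.3, 6.08 and 0.83 TPM after, also without overlap (-5.31, SE 1.62, edgeR adjusted p = 0.0898), which DESeq2 called (DESeq2 adjusted p = 0.00121).

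Bpifb1 read 47.4 and 153 TPM before and 1.28, 0.61 and 0.04 TPM after in the mixed BASC cultures (-7.32, SE 1.26, edgeR adjusted p = 0.0093), and the call was lost without the Ad-Cre organoids (-6.22, edgeR adjusted p = 0.0506). The change was -7.95 without the Ad-GFP organoids and -8.17 without mixed BASC tumoroid 1. Pigr read 456 and 347 TPM before and 23.7, 0.37 and 3.79 TPM after (-5.47, SE 1.4, edgeR adjusted p = 0.031). That call was lost without the mixed BASC Ad-GFP organoids (0.128), the mixed BASC Ad-Cre organoids (0.0796) or mixed BASC tumoroid 3 (0.0913), and the value was -7.47 without mixed BASC tumoroid 1. Wfdc2 read 4773 and 4999 TPM before and 751, 1174 and 1220 TPM after (-2.19, SE 0.631, edgeR adjusted p = 0.0458), a change whose size held between -2.37 and -1.96 while the call was lost in 8 of 10 fits that left out 1 library, with adjusted p values up to 0.169.

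Bpifa1 was uneven among the tumoroids. In the mixed BASC cultures it read 3298 and 4248 TPM before and 2166, 102 and 51.4 TPM after, with mixed BASC tumoroid 1 close to the organoids (-2.38, SE 1.43, edgeR adjusted p = 0.275), and without that tumoroid the log2 fold change was -5.52 (edgeR adjusted p = 0.032). In the AT2 cultures the order was the other way, at 7.11 and 5.84 TPM before and 95.9, 12.7 and 16.6 TPM after, without overlap (2.91, SE 1.62, edgeR adjusted p = 0.321). The difference between the origins was 5.28 (SE 2.17, edgeR adjusted p = 0.256).

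Lcn2 stayed abundant. It read 6840 and 2127 TPM before and 1327, 861 and 5924 TPM after in the AT2 cultures (-0.69, SE 0.867, edgeR adjusted p = 0.688), and 6476 and 7024 TPM before and 2876, 634 and 806 TPM after in the mixed BASC cultures (-2.22, SE 0.874, edgeR adjusted p = 0.112). The mixed BASC ranges did not overlap, and DESeq2 called that difference (DESeq2 adjusted p = 0.0353), as edgeR did without AT2 tumoroid 3 (edgeR adjusted p = 0.0443). Slpi read 348 and 145 TPM before and 277, 165 and 765 TPM after in the AT2 cultures, and 56.1 and 137 TPM before and 204, 99.7 and 95.6 TPM after in the mixed BASC cultures, overlapping in both. AT2 tumoroid 3, the highest AT2 tumoroid for Lcn2 and Slpi, also differed in its support cell markers. These summed to 4143 TPM in it and to 273 and 161 TPM in AT2 tumoroids 1 and 2. Their part in its Lcn2 and Slpi levels was not tested.

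The mixed BASC cultures changed in their lineage markers along with these genes. The 8 AT2 markers summed to 802 and 3565 TPM in the mixed BASC organoids and to 33850 to 69610 TPM in the mixed BASC tumoroids, with 6 of 8 called higher, and the 5 basal markers went from 1718 and 2334 TPM to 3.51 to 23.0 TPM, with 4 of 5 called lower. The 6 club markers summed to 11770 and 13650 TPM before and 345 to 3648 TPM after, with 4 called lower. The 5 ciliated markers went from 408 and 1767 TPM to 14.4 to 32.0 TPM, with 5 of 5 called lower and a median log2 fold change of -6.40, and the 5 goblet markers from 285 and 385 TPM to 3.02 to 8.09 TPM, with 3 of 5 called lower. The part of this shift in the changes of Ltf, Bpifb1, Pigr and Wfdc2 was not tested. The 9 neutrophil markers summed to 0.71 to 4.59 TPM over all organoids and to 3.14 to 24.7 TPM over all tumoroids. Of the 9, 6 stayed at or under 1 TPM in every tumoroid, Mpo and Elane among them at or under 0.28 TPM. S100a8, the only 1 of the 9 with enough reads to test there, was not called in the mixed BASC cultures but was called higher over all 7 transplant tumoroids. A part of neutrophil RNA in the tumoroids was not tested.

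The bronchiolar BASC pair was the only 1 whose tumoroid held the basal markers at a sum above 23.0 TPM (1562 TPM), with 1 library on each side and no test. The tumoroid held Krt5 at 103 TPM, Krt14 at 1316 TPM, Scgb1a1 at 8473 TPM, Scgb3a2 at 2824 TPM and Foxj1 at 131 TPM, the last a regulator of ciliated cells, although another ciliated marker, Ccdc153, was at 0.13 TPM. It also held AT2 transcripts. The 8 AT2 markers summed to 8217 TPM in it, against 3023 TPM in the bronchiolar organoids and at least 31110 TPM in the AT2 tumoroids. In the bronchiolar tumoroid Wfdc2 read 2972 TPM, 75.1% of the 3958 TPM in the bronchiolar organoids. Pigr read 114 TPM, 58.8% of its organoid level, Lcn2 3012 TPM, 41.5%, and Ltf 3839 TPM, 35.8%.

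Other genes of the bronchiolar pair kept far less. Bpifa1 read 150 TPM in the bronchiolar tumoroid, 4.31% of its organoid level, Bpifb1 1.08 TPM, 1.42%, and Reg3g 0.38 TPM, 0.0142%. Lyz2 was at 25.1% of its organoid level, at 104 TPM, and was lower than in any AT2 or mixed BASC tumoroid. Slpi was higher than in the organoids, at 283 and 119 TPM. Ltf, Pigr and Wfdc2 lay above all 6 AT2 and mixed BASC tumoroids, whose highest levels were 66.7, 23.7 and 1246 TPM.

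**Figure D4:**
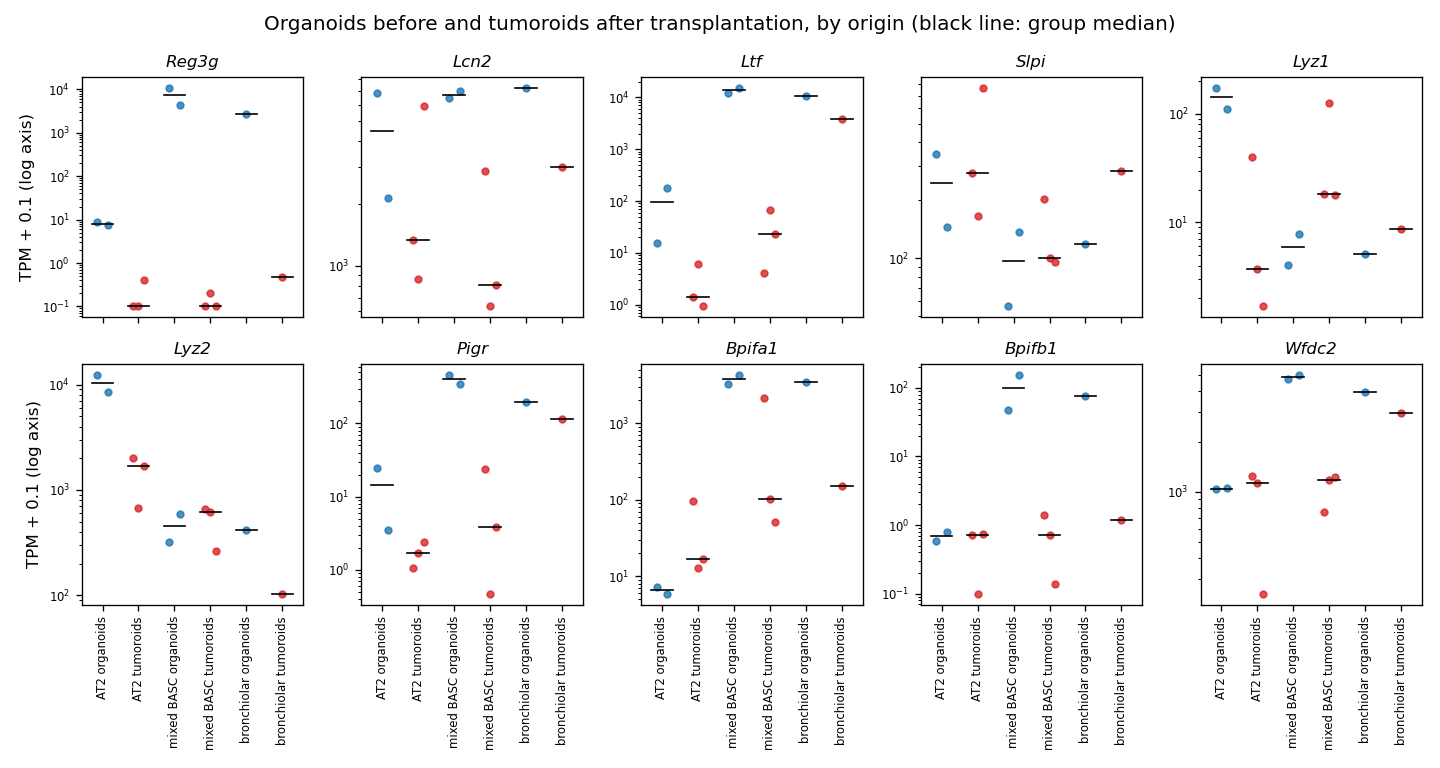
TPM + 0.1 (log axis, a separate scale in each panel) of the 10 genes in organoids before transplantation (blue) and tumoroids after it (red) from AT2 cells, mixed BASCs and bronchiolar BASCs, with 1 point per library and a black line at each group's median. The Reg3g points of the tumoroids lie at the bottom of the panel in every origin, whereas Ltf, Pigr and Wfdc2 of the bronchiolar tumoroid (3839, 114 and 2972 TPM) stay near the bronchiolar organoids.

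Between the AT2 and mixed BASC tumoroids (3 against 3), 0 of the 10 genes were called by edgeR. Of these, Reg3g held 2 reads over all AT2 and 1 read over all mixed BASC tumoroids. These are too few for a call, so for Reg3g this comparison decides nothing. Of 17592 genes edgeR called 0 (0%, with 381 at an unadjusted p under 0.05), while DESeq2 called 19 genes and limma 1. Lyz2 had the smallest unadjusted p of the set, at 2003, 673 and 1700 TPM in the AT2 and 654, 621 and 261 TPM in the mixed BASC tumoroids (log2 fold change 1.69, SE 0.505, edgeR adjusted p = 1). The autochthonous tumoroid read 3123 TPM of Lcn2, 8284 TPM of Lyz2, 708 TPM of Wfdc2, 115 TPM of Slpi and at most 6.28 TPM of Ltf, Pigr, Bpifa1, Bpifb1 and Lyz1. Apart from Lyz2, and Bpifa1 at 4.77 TPM, which was below all 7, its levels lay within the range of the transplant tumoroids.

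Of the wider defence list, 33 genes were tested in the mixed BASC cultures, of which 3 were higher and 13 lower in the tumoroids and 17 were not called, beside 8.27% of all genes higher and 9.6% lower, with a median log2 fold change of -2.02 beside 0.04 over all genes. Reg1 (-11.47), the beta-defensin Defb1 (-10.34) and Itln1 (-8.97), an intelectin that binds microbial sugars, had the largest changes, and Reg1 and Defb1 were listed at 0 TPM in all 3 mixed BASC tumoroids. In the AT2 cultures 1 of 33 was called, beside 6.46% of all genes. It was Lbp (-1.33), which encodes lipopolysaccharide-binding protein. Over all 7 transplant tumoroids, 1 of 26 was higher and 3 were lower, beside 10.8% of all genes higher and 8.77% lower. S100a8 was the higher gene (2.15, edgeR adjusted p = 0.0318), which is also on the neutrophil list. Itln1 (-5.29) and Ccl28 (-3.48), a mucosal chemokine, had the largest changes among the lower genes.

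The upstream receptors and regulators were counted across transplantation too. In the mixed BASC cultures 3 of 37 were higher and 4 lower in the tumoroids, beside 17.9% of all genes called, with Cebpa higher (3.35) and Tnf (-3.26) and Il22ra1 (-3.07) lower. In the AT2 cultures 2 of 37 were called, Il17rb (-2.23) and Tlr4 (-1.46), both lower, beside 6.46% of all genes. Over all 7 transplant tumoroids, 1 of 35 was higher, Il17rc (0.92), a chain of the IL-17 receptor, and 1 was lower, Spdef (-1.25), a regulator of goblet cells, beside 19.6% of all genes called. In the bronchiolar tumoroid Tnf read 29.8 TPM, against 37.7 TPM in the bronchiolar organoids, and Il22ra1 0.43 against 0.78 TPM.

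The genes most like Reg3g over the 18 libraries were sought by Pearson's correlation of log2 CPM among 20103 genes, as a description in which libraries share lineage and platform. They were Misp (r = 0.987), Tmc5 (0.986), Edn2 (0.985), Agr2 (0.984) and Dmrt2 (0.984). Agr2, a protein-folding enzyme of mucus-secreting cells, read 306 to 374 TPM in the trachea and 0.37 TPM in the bronchiolar tumoroid, and all 5 genes stayed at or under 1.16 TPM in every tumoroid. The 5 goblet markers, of which Agr2 is 1 and so not independent of this choice, summed to 238 to 385 TPM in the mixed or bronchiolar BASC organoids and to 9.08 TPM in the bronchiolar tumoroid, and their part in the Reg3g difference was not tested. Within the set, Pigr (r = 0.877) and Ltf (r = 0.874) were most like Reg3g, at ranks 1015 and 1067 of all genes, followed by Wfdc2 (0.787), Bpifb1 (0.777), Lcn2 (0.693) and Bpifa1 (0.691). Lyz2 (-0.47), Lyz1 (-0.48) and Slpi (-0.69) ran the other way.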

How the data were processed

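Per the labels and methods, the authors trimmed reads with Trimmomatic 0.39 and used STAR 2.6.1d and RSEM 1.3.2, and deposited for each library and gene the expected count, an estimate that need not be whole, and the TPM. Of 46603 gene identifiers, 46091 matched GENCODE vM21 (GRCm38), including all 10 genes; 512 did not. Expected counts were rounded and tested with edgeR 4.0.16 in R 4.3.3 (filterByExpr, TMM factors, quasi-likelihood test, Benjamini-Hochberg adjusted p below 0.05), with a block for population in the Ad-Cre comparison, because both aliquots came from 1 sort. Alternatives were DESeq2 1.42.0, its size factors, no filter, limma 3.58.1 on log2(TPM + 1), leaving out each library, no block, Lyz1 and Lyz2 summed, and leaving out the bronchiolar cultures. Promoter windows came from RefSeq for all 10 genes. The pipeline was run on simulated counts that had less spread between libraries than the transplant comparisons, so that run does not bear on their calls. No 2 libraries held identical counts. The 10 genes and the gene lists were chosen with earlier results of these data known. Named genes were the 10, the Reg3 relatives, the 3 largest changes called per list and comparison, and the 5 genes most like Reg3g; other genes were chosen after their values were seen. Of the 161 genes listed, 159 were matched. Counts set precision, and floors and intervals cover counting error only.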

Additional observations from a re-analysis of the deposited data

Results flagged for a closer look

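Each gene was examined in groups of 4 or 7 libraries, which gave 49 pairs of a gene and a group. In 15 of the 49 the highest or lowest TPM stood farther from the next than Dixon's 95% limit allows. The gap is given over the group's range. Chance flags about 1 in 20, or 5%, of independent pairs with like libraries. These groups shared libraries and were mixed in lineage, so many of the gaps repeat the lineage differences described above.

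Among the 7 transplant tumoroids, the bronchiolar BASC tumoroid was set apart for Ltf (0.983), Pigr (0.795) and Wfdc2 (0.633). Bpifa1 was set apart in mixed BASC tumoroid 1 (0.936, at 2166 TPM), Lyz1 in mixed BASC tumoroid 2 (0.696, at 127 TPM) and Slpi in AT2 tumoroid 3 (0.72, at 765 TPM). Mixed BASC tumoroid 2 also held Scgb1a1 at 2910 TPM.

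Of the 4 Ad-GFP organoids, the AT2 culture was set apart for Reg3g (0.904), Slpi (0.969), Lyz1 (0.983) and Lyz2 (0.982), and the mixed BASC culture for Bpifb1 (0.884). With Ad-Cre, the AT2 culture was again set apart for Lyz1 (0.944) and Lyz2 (0.947), and the mixed BASC culture for Bpifb1 (0.918). Among the tracheal organoids, the NGFR-negative Ad-Cre culture was set apart for Lyz1 (0.876, at 5.54 TPM).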

How the results depend on the processing

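Every called difference between organoid lineages kept its direction under DESeq2, DESeq2's size factors, no filter, limma on log2(TPM + 1) and the removal of any 1 library, and the calls lost are given beside the results. No organoid condition had a second library, so the spread rests on related cultures, and the cause of the moves below was not tested. DESeq2 called 12 genes between NGFR sorts (limma 3), 5 with Ad-Cre, 3173 in the AT2 and 5212 in the mixed BASC cultures, 2024 for the difference between origins (limma 811) and 19 between tumoroid groups (limma 1), against edgeR's 0, 0, 1136, 3144, 40 and 0. Without a filter edgeR called 616 in the AT2 cultures and 214 for the difference between origins. Leaving out 1 library gave 0 (without the AT2 Ad-GFP organoids) to 2752 calls (without AT2 tumoroid 3) in the AT2 cultures, 435 to 4875 in the mixed BASC cultures, 0 to 720 for the difference between origins and 1973 (without the bronchiolar organoids) to 3716 (without the bronchiolar tumoroid) over all transplants.

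Without the block for population the Ad-Cre comparison still had 0 calls. Under it and without it no gene of the set passed, and the direction turned for Lyz1 (-0.55 without the block), Lyz2 (-0.46) and Pigr (0.22). Summing the lysozymes turned Lyz1 between the tumoroid groups (1.55). The log2 fold changes of genes that were not called crossed 0 when 1 library was left out, between NGFR sorts for Reg3g (-0.17 to 0.34), Lcn2 (-0.061 to 0.33), Ltf (-0.29 to 0.036), Lyz1 (-0.52 to 2.01), Lyz2 (-0.56 to 1.07), Pigr (-0.24 to 0.43) and Bpifb1 (-0.31 to 0.99), and with Ad-Cre for Reg3g (-0.55 to 0.065), Lcn2 (-0.45 to 0.24), Slpi (-0.60 to 0.32), Pigr (-0.85 to 0.28) and Bpifa1 (-0.012 to 0.25). The same held in the AT2 cultures for Lcn2 (-1.79 to 0.40), Bpifb1 (-1.10 to 0.18) and Wfdc2 (-0.46 to 0.44), between tumoroid groups for Lcn2 (-0.075 to 1.91), Lyz1 (-4.26 to 0.014), Bpifb1 (-1.13 to 0.39) and Wfdc2 (-0.43 to 0.45), over all transplants for Lyz1 (-1.40 to 0.60), in the mixed BASC cultures for Lyz2 (-0.18 to 0.73) and for the difference between origins for Slpi (-0.54 to 1.10).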
